A study of Mus musculus with 10 samples.

Results

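Kupffer cells are the resident macrophages of the liver, and 10 genes that mark them or macrophages in general were followed in livers with and without the glucagon receptor. The genes were Clec4f, Cd5l, Vsig4, Marco, Cd163, Timd4, Emr1 (now named Adgre1), Csf1r, C1qa and C1qb. They were matched by name in the array annotation, and they were chosen with earlier results of these data known. Among the 41174 distinct probes of the array, 13 carried one of these names. All 10 genes passed the filter on dim probes, and they are 10 of the 18934 genes tested.

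RNA came from the livers of 10 mice, which the series describes as separate animals. The 5 control livers carried the genotype wt/wt (WT, 3 males and 2 females). The 5 knockout livers had the genotype ko/ko for Gcgr (KO, 2 males and 3 females), the gene of the receptor through which glucagon acts on hepatocytes. Each liver was labelled with Cy5 and hybridised on a 2-colour Agilent mouse array against the Universal mouse reference of Stratagene, a pooled RNA labelled with Cy3. Strain, age, diet and the deleted part of Gcgr are not given in the sources used here, and no treatment is named. All values below are log2 ratios of liver over reference unless another scale is named, so a value of 1 means that the liver sample was brighter than the reference by a factor of 2.

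Kupffer cells line the liver sinusoids and clear bacteria, ageing blood cells and modified lipoproteins from portal blood. They depend on signalling through CSF1R, the receptor for CSF1 and IL-34, and they make C1q, the recognition subunit of the classical complement pathway. Clec4f, a galactose-binding lectin, is in mice a marker of Kupffer cells among macrophages. Vsig4 is a complement receptor that binds C3b, Marco and Cd163 are scavenger receptors, Timd4 binds phosphatidylserine on dying cells, and Cd5l is a secreted protein of tissue macrophages. Transcription factors that shape macrophages include PU.1 and the MAF family. In whole liver, fewer cells of a type and less RNA per cell cannot be told apart.

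Promoter sequence is shown for the 4 members on which the results below turn: Clec4f for genotype, Vsig4 for sex, Marco for its spread, and Cd5l as the secreted marker beside them. Each run holds the 250 bases before the RefSeq gene start (assembly GRCm38.p6), 5′ to 3′ on the strand of the gene. Capitals mark exact matches, on either strand, to GAGGAA, the core bound by PU.1, or to TGCTGA, the half-site bound by MAF proteins. GAGGAA occurred in 23.3% of 32851 RefSeq mouse promoter windows of equal length and TGCTGA in 16.1%, so a match describes the letters only. Clec4f held 1 TGCTGA (chr6:83656117-83656366, minus strand). Cd5l held 1 PU.1 core and 2 MAF half-sites near the start (chr3:87357631-87357880, plus strand). Vsig4 held 2 PU.1 cores (chrX:96293439-96293688, minus strand), and Marco held 1 (chr1:120505025-120505274, minus strand).
Clec4f: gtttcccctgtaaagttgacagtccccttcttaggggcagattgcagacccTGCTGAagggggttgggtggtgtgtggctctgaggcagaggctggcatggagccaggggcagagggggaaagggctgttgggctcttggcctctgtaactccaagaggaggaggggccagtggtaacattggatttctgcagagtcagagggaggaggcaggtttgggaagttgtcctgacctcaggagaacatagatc
Cd5l: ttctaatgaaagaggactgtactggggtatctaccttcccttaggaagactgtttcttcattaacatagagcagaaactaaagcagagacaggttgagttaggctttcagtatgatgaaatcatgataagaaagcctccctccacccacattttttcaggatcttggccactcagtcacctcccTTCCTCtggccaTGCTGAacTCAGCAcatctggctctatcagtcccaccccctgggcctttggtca
Vsig4: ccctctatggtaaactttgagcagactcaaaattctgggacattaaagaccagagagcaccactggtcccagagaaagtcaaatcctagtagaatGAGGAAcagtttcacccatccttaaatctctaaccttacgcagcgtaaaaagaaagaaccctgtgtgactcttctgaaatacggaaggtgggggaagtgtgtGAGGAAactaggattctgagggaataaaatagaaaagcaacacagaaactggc
Marco: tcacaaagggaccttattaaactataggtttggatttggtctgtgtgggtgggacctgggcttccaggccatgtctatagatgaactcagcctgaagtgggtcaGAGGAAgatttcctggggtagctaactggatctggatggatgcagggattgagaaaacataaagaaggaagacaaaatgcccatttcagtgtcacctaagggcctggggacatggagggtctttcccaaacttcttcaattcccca
Of the other members, Cd163 held neither motif, Timd4 held 2 TGCTGA matches, and C1qb held 1 of each. In these 7 windows a PU.1 core thus stood in 4 and a MAF half-site in 4.

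The labels were checked on Gcgr itself. Its log2 ratio was 7.74 to 8.14 in the WT livers and 0.28 to 0.36 in the KO livers, a difference of -7.66 (SE 0.08), and no label was contradicted. Arrays of slides 1 and 2 were brighter, with a median net Cy5 intensity of 107.8 to 129.6, than those of slides 3 and 4, with 56.7 to 76.1. Slide 1 held WT 1, WT 2, KO 1 and KO 2, slide 2 held KO 3 and KO 4, slide 3 held WT 3, WT 4 and KO 5, and slide 4 held WT 5. Across all genes, livers of the same group correlated at 0.957 to 0.995. The limma model with genotype and sex called 545 genes higher and 583 lower in KO. Hence 48.3% of its calls were higher, against 71.9% of 278 calls with median centring and 58.8% of 337 calls when outlier spots were removed after background correction.

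All 10 members were measurable in every liver: the probe used for each gene was well above background in Cy5 on all 10 arrays, as were 81.4% of all genes tested, and no member probe was saturated. In mm7, the build named in the array files, these probes, but for that of Csf1r, whose position is not reported here, lie at chr6:83670672-83670730 (Clec4f), chr3:87483753-87483812 (Cd5l), chrX:91575173-91575232 (Vsig4), chr1:120342087-120342147 (Marco), chr6:124312766-124312825 (Cd163), chr11:46800424-46800483 (Timd4), chr17:55686649-55686708 (Emr1), chr4:136274931-136274990 (C1qa) and chr4:136259100-136259159 (C1qb). An mm7 annotation was not used here, so exons are not named.

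Between the genotypes, none of the 10 members passed the threshold (limma adjusted p under 0.05 over all genes), against 5.96% of all genes. By the unadjusted p of the same limma fit, 1 of the 10 (Clec4f) lay under 0.05, as did 3954 of the 18934 genes tested. Later counts by unadjusted p for genotype stand beside that same share. In none of the 10 did the KO livers lie wholly above or wholly below the WT livers, whereas 2.95% of all genes lay wholly above and 3.07% wholly below. The estimated difference was above 0 for 9 of the 10, against 49.3% of all genes. The member median was 0.23, and the median of all genes was -0.00, which the normalisation within arrays keeps small. The lean of the members was lost without one liver and in one other processing. Without KO 5 the estimate was above 0 for only 4 members (Clec4f, Cd5l, Emr1 and Csf1r), and the member median was -0.03. In the scanner software's log ratio, with all 10 livers, it was above 0 for 4 (Clec4f, Marco, Emr1 and Csf1r), with a median of -0.02.

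**Figure D1:**
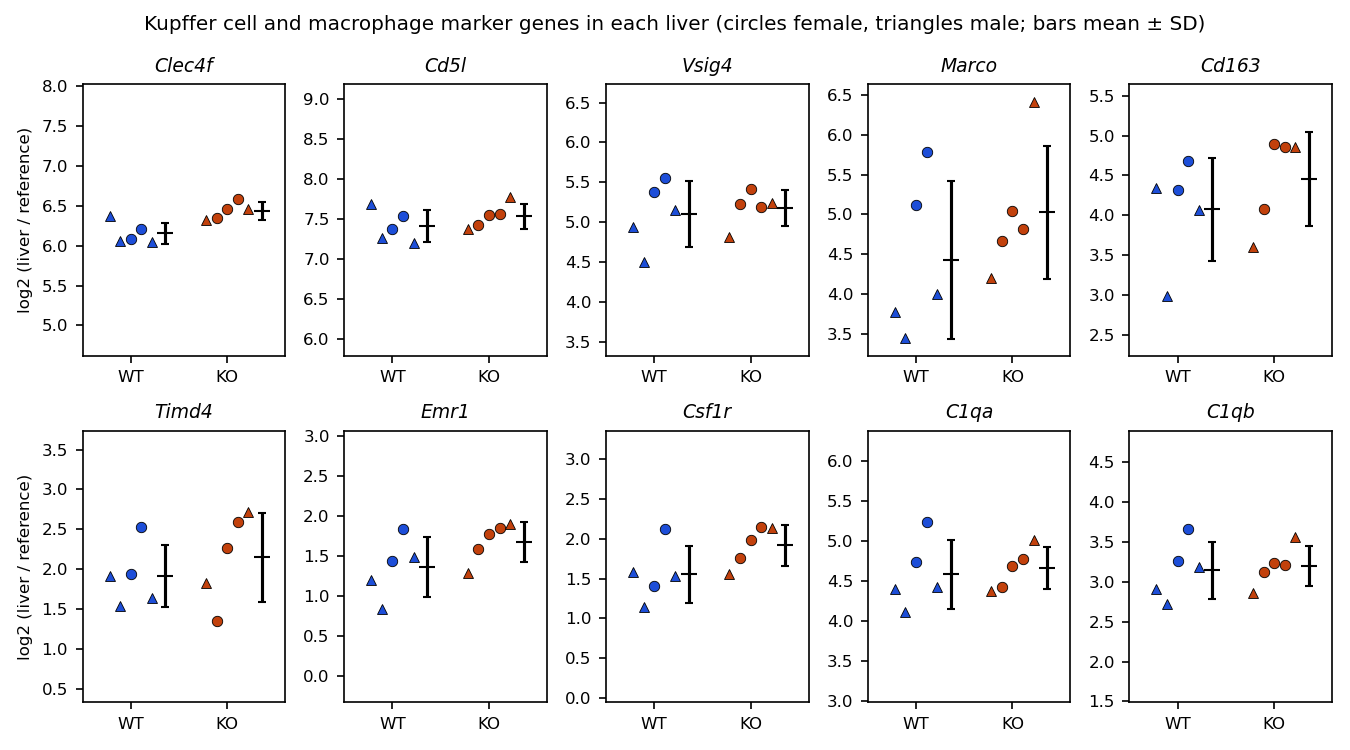
Log2 ratio of liver over reference (y axis) of each of the 10 marker genes in the 5 WT (blue) and 5 KO (orange) livers, with circles for females, triangles for males, and bars for the group mean ± SD. Each panel has its own level but the same height of scale. The groups overlap in every panel, and Marco spreads from 3.45 to 6.41.

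Clec4f, the Kupffer cell lectin, was the member with the smallest error relative to its difference. Its log2 ratio was 6.37, 6.06, 6.08, 6.21 and 6.05 in WT 1 to WT 5. It was 6.32, 6.34, 6.46, 6.59 and 6.46 in KO 1 to KO 5. The 3 highest livers were all KO (KO 3, KO 4 and KO 5), and WT 1 lay above the other 2 KO livers, so the groups overlapped. The mean was 6.15 ± 0.14 in WT and 6.43 ± 0.11 in KO (SD, n = 5 each). The difference was 0.28 (SE 0.09, 95% interval 0.09 to 0.46), a fold of 1.21 (1.06 to 1.38), and it did not pass (limma adjusted p = 0.0868).

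The Clec4f value moved with 1 liver and with the processing. Without WT 1 the difference was 0.33 and passed (limma adjusted p = 0.0338), where 5.60% of all genes passed. A fixed block for slide gave 0.19 (limma adjusted p = 0.276). Within slide 1 it was 0.12, and within slide 3 it was 0.32. It was 0.48 (limma adjusted p = 0.0594) in the Cy5 channel alone and only 0.03 in the scanner software's own log ratio.

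Cd5l, the secreted macrophage protein, varied little in the log2 ratio. In the Cy5 channel alone it ran from 13.75 in WT 2 to 14.99 in WT 4 (log2), with a genotype difference of 0.19 (SE 0.20). Its log2 ratios were 7.69, 7.26, 7.37, 7.54 and 7.20 in WT 1 to WT 5 and 7.37, 7.42, 7.55, 7.56 and 7.77 in KO 1 to KO 5. Only KO 5 lay above the highest WT liver. The difference in the ratio was 0.12 (SE 0.11, 95% interval -0.12 to 0.36, limma adjusted p = 0.601), an interval that as a fold is 0.918 to 1.29.

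Vsig4, the C3b receptor, showed no genotype difference that the 10 livers could resolve, and its 4 lowest values were all from males. It stood at 4.94, 4.50, 5.38, 5.55 and 5.15 in WT 1 to WT 5. The KO livers gave 4.81, 5.23, 5.41, 5.20 and 5.24. The genotype difference was -0.01 (SE 0.14, 95% interval -0.31 to 0.29, limma adjusted p = 0.980). Females averaged 5.36 ± 0.14 and males 4.93 ± 0.30 (SD, n = 5 each), a fitted difference of 0.43 (SE 0.14, 95% interval 0.13 to 0.73) or 1.35-fold that did not pass (limma adjusted p = 0.0698).

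For sex, too, none of the 10 members passed in limma, where 11.5% of all genes did (4.99% higher and 6.54% lower in females). By the unadjusted p of that fit, 1 (Vsig4) lay under 0.05, and the share of all genes by that measure was not counted. Females and males overlapped in all 10, while among all genes 3.52% lay wholly higher and 5.69% wholly lower in females. Vsig4 passed with a higher value in females under 4 alternatives. It did so at 0.45 (limma adjusted p = 0.0482) in the authors' deposited log2 values, at 0.58 (0.0229) in the Cy5 channel alone, at 0.48 (0.0486) without WT 5 and at 0.55 (0.0231) without KO 5. A fixed block for slide gave 0.38 (limma adjusted p = 0.104).

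Marco, the scavenger receptor with collagenous structure, varied most of the 10. Its WT values were 3.78, 3.45, 5.12, 5.79 and 4.002, and its KO values were 4.20, 4.67, 5.05, 4.82 and 6.41. The lowest and highest livers, WT 2 and KO 5, differed 7.79-fold. In WT livers the 2 females (5.12 and 5.79) lay above the 3 males (3.45 to 4.002), while in KO livers the 2 males gave the lowest and the highest value. The genotype difference was 0.47 (SE 0.46, 95% interval -0.54 to 1.49, limma adjusted p = 0.622).

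The Marco value also moved with slides and with single livers. Slide 1 averaged 4.03 (n = 4), slide 2 averaged 4.93 (n = 2), slide 3 averaged 5.77 (n = 3), and the liver on slide 4 was at 4.002. With slide as a fixed block, KO exceeded WT by 0.88 (SE 0.18, limma adjusted p = 0.0258), the only member to pass in that fit, where 6.34% of all genes passed. That fit takes its contrast from slides 1 and 3, since slide 2 held only KO and slide 4 only WT, and the within-slide differences were 0.82 and 0.95. On slide 3 the lone KO liver was a male and both WT livers were females. Without KO 5 the Marco difference was -0.20 in the model without slide.

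The genotype effect on Marco was also estimated in each sex. It was -0.61 in females and 1.56 in males, a difference between the sexes of -2.17 (SE 0.68, 95% interval -3.69 to -0.66) that did not pass over all genes (limma adjusted p = 0.274). No member passed this interaction in limma, against 0.0317% of all genes. By the unadjusted p of that fit, 2 (Marco and C1qa) lay under 0.05. The share of all genes by unadjusted p was not counted for the interaction, so that count has nothing to be read against. Without KO 1, which leaves KO 5 as the only KO male, the Marco interaction was -3.28 (SE 0.34, limma adjusted p = 0.00551), where 0.608% of all genes passed. Without KO 5 the female minus male difference of Marco was 1.30 (limma adjusted p = 0.00466), against 0.62 (limma adjusted p = 0.454) with all livers.

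KO 5 stood apart in neutrophil markers as well. S100a9, a calcium-binding protein abundant in neutrophils, was at 5.25 in KO 5 and at 1.98 to 3.60 in the other 9 livers. S100a8, its partner, was at 0.47 in KO 5 and at -2.15 to -1.26 elsewhere. KO 5 also stood apart in Hmox1 (-0.05, elsewhere -1.94 to -1.22), Ccl2 (-2.18, elsewhere -3.68 to -3.10) and Spp1 (-3.61, elsewhere -5.79 to -4.80). The mean of the 2 neutrophil markers tested, of 6 on the list, was -0.09 to 0.65 in WT and 0.34 to 2.86 in KO, and neither passed for genotype in limma (1, S100a9, had an unadjusted p under 0.05). The other 4 (Ngp, Camp, Elane and Retnlg) did not pass the filter on dim probes. The part of these transcripts in the Marco value was not tested.

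Cd163, the haptoglobin-haemoglobin scavenger receptor, was low in WT 2. Its values were 4.34, 2.99, 4.31, 4.68 and 4.07 in WT and 3.61, 4.08, 4.89, 4.85 and 4.86 in KO. Although 3 KO livers lay above every WT liver, KO 1 lay below all WT livers but WT 2, and the difference was 0.27 (SE 0.30, 95% interval -0.38 to 0.93, limma adjusted p = 0.671). Its Cy3 signal was above background on 8 of 10 arrays. In the scanner software's log ratio, which subtracts background without an offset, the Cd163 difference was -0.25.

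Timd4, the phosphatidylserine receptor of long-lived resident macrophages, was at 1.91, 1.54, 1.94, 2.53 and 1.64 in WT and 1.83, 1.35, 2.26, 2.59 and 2.71 in KO. In this ratio KO livers supplied both the lowest (KO 2) and the highest value (KO 5). In the Cy5 channel alone the lowest liver was WT 2 (8.28, log2), and KO 2 (9.18) lay near KO 5 (9.22). The Cy3 signal of Timd4 was above background on 9 of 10 arrays. The difference was 0.20 (SE 0.26, limma adjusted p = 0.725).

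Emr1 encodes the adhesion receptor most often used to stain mouse macrophages. It was at 1.19, 0.83, 1.44, 1.84 and 1.48 in WT and at 1.28, 1.58, 1.78, 1.84 and 1.89 in KO, with overlap. The difference was 0.26 (SE 0.16, 95% interval -0.08 to 0.60, limma adjusted p = 0.389). A second Emr1 probe, above background in 2 WT and 4 KO livers, gave 0.17.

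Csf1r, the growth factor receptor on which Kupffer cells depend, was at 1.58, 1.15, 1.40, 2.12 and 1.53 in WT. In KO it was at 1.56, 1.75, 1.99, 2.15 and 2.13. WT 4 reached the level of the highest KO livers, and the other 4 WT livers lay at or below 1.58. The difference was 0.31 (SE 0.16, 95% interval -0.05 to 0.67, limma adjusted p = 0.310), or 1.24-fold. Of 2 further probes, one gave 0.19 and the other, above background in 3 WT and 3 KO livers, gave -0.05.

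Neither ligand of that receptor passed. Csf1 averaged -2.72 ± 0.16 in WT and -2.68 ± 0.21 in KO (SD, n = 5 each), with a difference of 0.02 (SE 0.11, limma adjusted p = 0.949). Il34 averaged -0.90 ± 0.26 and -0.69 ± 0.22, with a difference of 0.20 (SE 0.14, limma adjusted p = 0.460). None of the 5 genes listed as ligands or relatives of CSF1R signalling passed in limma, and 0 had an unadjusted p under 0.05.

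C1qa and C1qb, chains A and B of C1q, had the smallest fitted genotype differences together with Vsig4. C1qa was at 4.40, 4.12, 4.74, 5.24 and 4.43 in WT and at 4.38, 4.43, 4.69, 4.78 and 5.02 in KO, a difference of 0.01 (SE 0.18, 95% interval -0.38 to 0.40, limma adjusted p = 0.980). C1qb was at 2.91, 2.72, 3.26, 3.66 and 3.18 in WT and at 2.86, 3.12, 3.23, 3.21 and 3.56 in KO. Its difference was 0.00 (SE 0.16, 95% interval -0.35 to 0.35, limma adjusted p = 0.997). In both genes WT 4 was the highest liver and WT 2 the lowest. C1qc, the third chain, differed by -0.02 (SE 0.11, limma adjusted p = 0.942).

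Without KO 5, both C1q chains passed for sex. C1qa was then 0.52 higher in females (limma adjusted p = 0.0438) and C1qb 0.45 (limma adjusted p = 0.0374). Together with Marco and Vsig4 this made 4 of 10 members, where 4.17% of all genes passed as higher in females. With all livers the 2 differences were 0.31 (limma adjusted p = 0.324) and 0.25 (limma adjusted p = 0.379).

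The 10 genes tended to be high or low in the same livers, and this crossed the genotypes. WT 2 lay below the gene's own mean for all 10 members and was the lowest liver for 7. WT 4 lay above it for 9 members and was the highest for 3. KO 3, KO 4 and KO 5 lay above it for all 10, while KO 1 lay above it for only 1. The median departure of the members was -0.55 in WT 2, 0.41 in WT 4 and 0.39 in KO 5. That of all genes was -0.01, -0.02 and -0.01, which the normalisation within arrays keeps small.

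**Figure D2:**
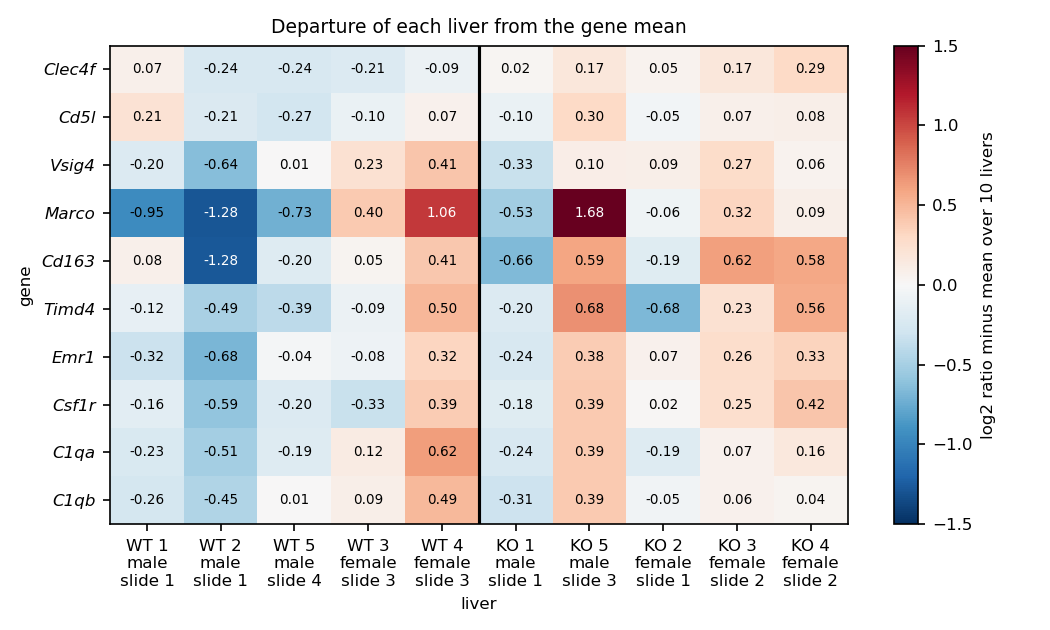
Departure of each liver (x axis, with its sex and slide) from the mean over the 10 livers, in log2 units, for each of the 10 marker genes (y axis), with red above and blue below the mean. WT 2 is blue throughout (Marco and Cd163 both -1.28), KO 5 is red throughout (Marco 1.68), and WT 4 is red in all but Clec4f.

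Slide went along with part of this pattern. Livers of slide 1 averaged lower than those of slides 2 and 3 in 9 of the 10 members, the exception being Clec4f, where slide 1 averaged 6.27 and slide 3 averaged 6.25. For C1qa slide 1 averaged 4.33, slide 2 averaged 4.74 and slide 3 averaged 5.00. Slide 1 held 3 males and 1 female, slide 2 held 2 females, and slide 3 held 2 females and 1 male. Sex and slide were thus only partly separable, and their part in the pattern was not tested.

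**Figure D3:**
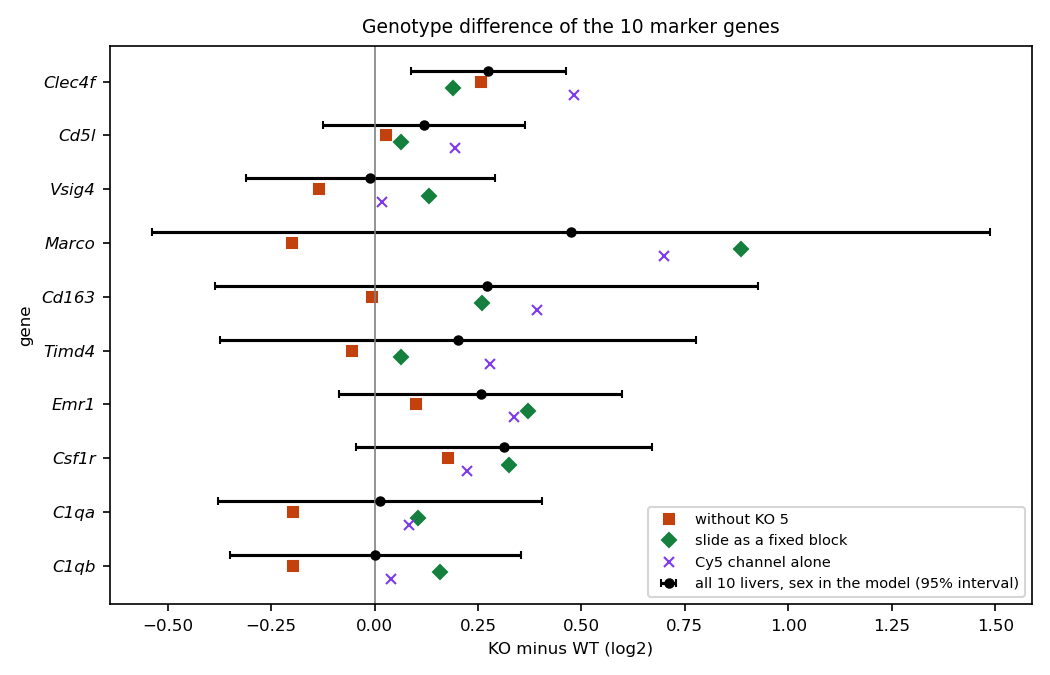
KO minus WT difference (x axis, log2) of each of the 10 marker genes (y axis) with its 95% interval from the model with sex (black), and its value without KO 5 (orange squares), with slide as a fixed block (green diamonds) and in the Cy5 channel alone (purple crosses). Every interval but that of Clec4f includes 0. Marco runs from -0.20 without KO 5 to 0.88 with slide as a block.

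The genes whose pattern over the 10 livers lay nearest to a member were found by the root mean square difference of their mean-centred log2 ratios. For Clec4f they were Mkln1 (0.0629), Acvr2a (0.0643) and Pank2 (0.0759). Clec4f itself had an SD of 0.19 over the livers. None of these 3 passed for genotype: Mkln1 differed by 0.25 (SE 0.08, limma adjusted p = 0.0812), Acvr2a by 0.21 and Pank2 by 0.29 (limma adjusted p = 0.0561). For Cd5l they were Pikfyve (0.0708), a probe without a gene name here (0.0748) and Pigm (0.0782). No other member was among these nearest genes. Clec4f and Cd5l spread alike (SD 0.19 and 0.18), so the measure could have placed each beside the other, and it did not. It could not have placed the remaining members there. Those members spread more over the livers (SD 0.29 for C1qb to 0.92 for Marco), and a difference in spread counts as distance.

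A further 6 lists of macrophage genes held 72 names, and 67 of them were tested. Spi1, Itgam, Ccr2, Ly6c2 and Retnla were not tested. In KO livers 6 of the 67 rose and 3 fell, where 2.88% of all genes rose and 3.08% fell. The median difference of the 67 was 0.08. For sex, 12 were higher and 1 lower in females. The lists were drawn up with earlier results of these data known.

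Among 17 receptors and phagocytosis genes, 2 rose and 1 fell. Cd14, the lipopolysaccharide co-receptor, was at -3.04, -3.00, -2.87, -2.46 and -3.04 in WT and at -2.36, -2.41, -2.11, -2.07 and -1.91 in KO. Every KO liver lay above every WT liver. The difference was 0.68 (SE 0.13, limma adjusted p = 0.0106), and Cd14 passed in all 22 alternatives tried.

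Mrc1, the mannose receptor CD206, was at 4.14, 3.60, 4.09, 4.28 and 3.71 in WT and at 4.46, 4.74, 4.78, 4.72 and 4.40 in KO, again without overlap. Its difference was 0.59 (SE 0.10, limma adjusted p = 0.00627). The call was lost in 3 of 22 alternatives, at most in the scanner software's log ratio (0.45, limma adjusted p = 0.314). Liver sinusoidal endothelial cells express Mrc1 too, and some of their markers also rose. Of 8 endothelial markers 3 rose (Lyve1 by 1.47, Oit3 by 0.34 and Pecam1 by 0.26), and all 8 estimates were above 0. Clec4g, Ptprb and Dnase1l3 (0.09 each), Kdr (0.16) and Stab2 (0.19) did not pass. A second Oit3 probe gave 0.22 (limma adjusted p = 0.124 over all probes). With slide as a fixed block Lyve1 still passed, while Oit3 (limma adjusted p = 0.0993) and Pecam1 (0.101) did not. The mean log2 ratio of the 8 markers was 3.53 to 4.10 in WT and 4.12 to 4.33 in KO, without overlap. Taken singly, only Lyve1 and Pecam1 were without overlap, and Lyve1 had by far the largest difference. The endothelial part in the Mrc1 difference was not tested.

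Stab1, a scavenger receptor of both sinusoidal endothelium and macrophages, averaged 3.66 ± 0.25 in WT and 3.94 ± 0.05 in KO (SD, n = 5 each), a difference of 0.25 (SE 0.10) that did not pass (limma adjusted p = 0.168). A second Stab1 probe gave 0.11 (limma adjusted p = 0.708 over all probes). Trem2, a lipid receptor of macrophages, fell by 0.58 (SE 0.12, limma adjusted p = 0.0167) from -3.19 ± 0.35 to -3.69 ± 0.18. Its second probe gave -0.28, and the call was lost in 4 of 22 alternatives (adjusted p at most 0.116). Cd68, a lysosomal glycoprotein common to macrophages, differed by 0.03 (SE 0.13, limma adjusted p = 0.916).

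Among 13 tested genes of Kupffer cell identity, 1 rose and 2 fell. Slc40a1 encodes ferroportin, through which macrophages release iron. It was at 4.05, 3.60, 4.36, 4.55 and 4.34 in WT and at 5.18, 4.64, 5.05, 5.33 and 5.20 in KO, without overlap. The difference was 0.87 (SE 0.18, limma adjusted p = 0.0162), or 1.83-fold. The call was lost only without KO 1, where the difference was 0.80 (limma adjusted p = 0.0626).

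Cd207, the lectin langerin, was at 2.81, 2.23, 3.46, 3.74 and 1.89 in WT and at 1.58, 2.25, 2.26, 1.34 and 1.46 in KO. The groups overlapped, with 3 KO livers below every WT liver. It fell by 1.22 (SE 0.24, limma adjusted p = 0.0133), and females exceeded males by 0.86 (SE 0.24, limma adjusted p = 0.0399). The genotype call was lost in 4 of 22 alternatives (limma adjusted p 0.0521 to 0.240), among them the fit without WT 3, where the difference was -1.17.

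Hpgd, which inactivates prostaglandins, fell by 0.56 (SE 0.12, limma adjusted p = 0.0183), and its second probe gave -0.30. The call was lost in 8 of 22 alternatives. The difference was -0.21 (limma adjusted p = 0.860) when outlier spots were removed after background correction, -0.37 (0.577) without the sex term and -0.42 (0.0534) with slide as a fixed block. The call was also lost without WT 3 or WT 4 (adjusted p at most 0.0591). Clec1b, a lectin that binds podoplanin, differed by 0.20 (SE 0.14), Folr2, a folate receptor, by 0.39 (SE 0.13, limma adjusted p = 0.0960) and Spic, a transcription factor of iron-handling macrophages, by 0.35 (SE 0.19). Nr1h3, the liver X receptor alpha that Kupffer cells use, differed by -0.12 (SE 0.09). None of these 4 passed in limma, where only Folr2 had an unadjusted p under 0.05.

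None of the 12 lysosomal and effector genes passed for genotype in limma, and 2 (Ctsc and Lgmn) had an unadjusted p under 0.05. Lyz2, the macrophage lysozyme, differed by 0.28 (SE 0.16, limma adjusted p = 0.374). Ctsc, a lysosomal peptidase, differed by 0.67 (SE 0.18, limma adjusted p = 0.0588). It passed with slide as a fixed block (0.79, limma adjusted p = 0.0430). Its fit used 9 livers, since the WT 3 spot carried an outlier flag.

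Of 8 early complement genes, 1 rose. C1ra, the protease that C1q activates, differed by 0.29 (SE 0.06, limma adjusted p = 0.0215), and its second probe gave 0.14. The C1ra call was lost in 11 of 22 alternatives, at most with median centring (limma adjusted p = 0.268). With slide as a fixed block the adjusted p was 0.0524, and leaving out WT 3, WT 4, KO 1, KO 2 or KO 3 also ended the call (0.0664 at most). Hepatocytes make this transcript too, and 1 of 7 hepatocyte markers passed (Tat, which fell by 0.63). The mean of the 7 was 6.78 to 7.18 in WT and 6.80 to 6.90 in KO.

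Of 12 tested genes of monocyte recruitment and inflammation, 2 rose. Il1b, an inflammatory cytokine, was at 0.03, -0.10, 1.09, 1.02 and 0.33 in WT and at 0.97, 1.54, 2.64, 1.82 and 1.31 in KO. Only KO 1 lay within the WT range. The difference was 0.998 (SE 0.18, limma adjusted p = 0.00898), and females exceeded males by 0.92 (SE 0.18). Without the sex term the call was lost (1.18, limma adjusted p = 0.0762). Il1b was not highest in KO 5, the liver with the most S100a8 and S100a9.

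Ly6c1, an antigen of monocytes and also of endothelium, rose by 0.60 (SE 0.13, limma adjusted p = 0.0212). Its second probe gave -0.20, and the call was lost in 10 of 22 alternatives. The difference was 0.20 (limma adjusted p = 0.317) as the mean of both probes and 1.10 (0.496) without the sex term. The call was also lost without WT 3, KO 1, KO 4 or KO 5 (adjusted p at most 0.0793). By the same probe the sex difference was far larger. The 5 females lay at 0.15 to 0.70 and the 5 males at -2.71 to -1.63, a difference of 2.48 (SE 0.13). The second probe did not share it, with a difference of 0.15 (limma adjusted p = 0.592 over all probes), and the mean of both gave 1.31.

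**Figure D4:**
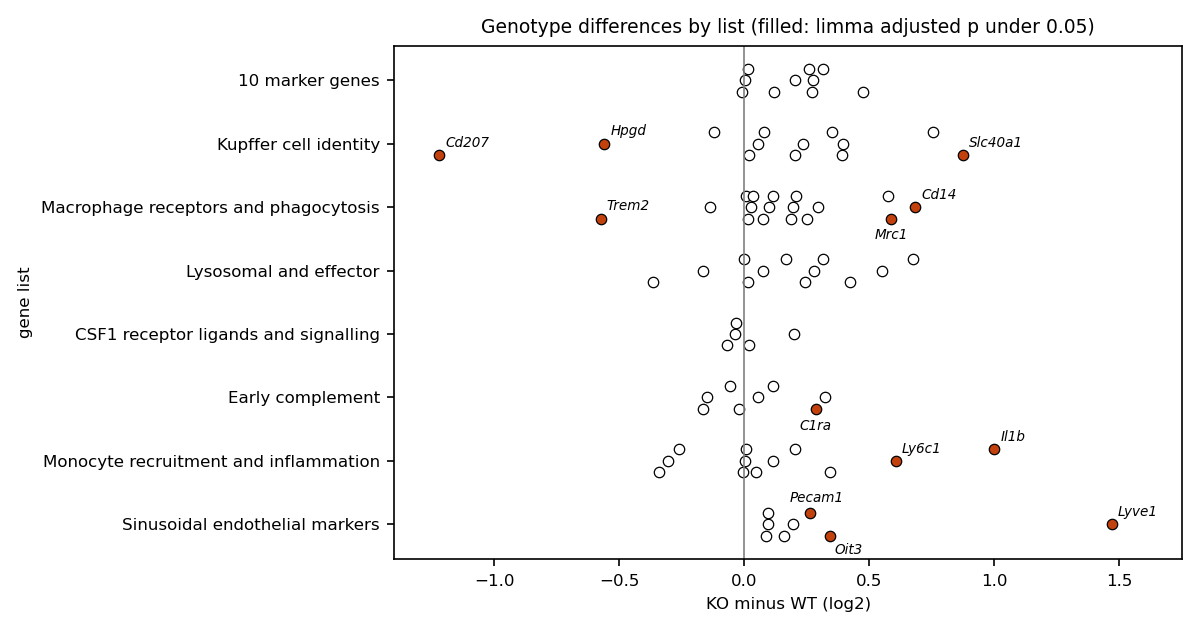
KO minus WT difference (x axis, log2) of the 10 marker genes, of 6 further macrophage lists and of 8 sinusoidal endothelial markers (y axis), with filled points for genes past the limma threshold. No marker gene is filled, Cd207 (-1.22), Hpgd and Trem2 are filled on the left, and Lyve1 (1.47), Il1b and Slc40a1 lie farthest right.

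Females exceeded males in 12 of the 67 wider genes, where 4.99% of all genes were higher in females. Beside Ly6c1, Il1b, Cd207 and Hpgd (0.95) they were the lysosomal peptidase Ctsc (1.13), the efferocytosis kinase Mertk (0.71), complement C3 (0.55), the Fc receptors Fcgr3 (0.46, second probe 0.29) and Fcgr2b (0.45), the scavenger receptor Msr1 (0.42), Mrc1 (0.34) and the ficolin Fcna (0.32). Il10, an anti-inflammatory cytokine, was lower in females by 0.41. With slide as a fixed block, 6 of these 13 sex calls were lost, those of Fcgr2b, Fcgr3, Fcna, Il1b, Mrc1 and Msr1 (limma adjusted p 0.0544 to 0.179). Ctsc, Mertk, Hpgd, Il1b, Il10 and Ly6c1 passed whichever liver was left out. The calls of Cd207, Msr1 and Mrc1 were lost without most single livers (adjusted p at most 0.131, 0.130 and 0.129). That of C3 was lost without WT 3, KO 1 or KO 5 (at most 0.0591), that of Fcgr2b without WT 3 or WT 4 (0.0590), that of Fcgr3 without WT 3, WT 4 or KO 4 (0.0861), and that of Fcna without WT 3, WT 4, KO 1 or KO 3 (0.0904).

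Markers of other cell types were set beside these values. None of 8 stellate, 5 bile duct, 6 T and NK, 6 dendritic and 3 erythroid markers passed for genotype in limma. By the unadjusted p, 3 of these 28 (Spp1, Xcr1 and Alas2) lay under 0.05, as did 3954 of the 18934 genes tested. Spp1, on the bile duct list and also expressed by macrophages, differed by 0.87 (limma adjusted p = 0.0612), and it passed with slide as a fixed block (1.04, limma adjusted p = 0.000966). The mean of the 5 bile duct markers was -3.51 to -3.24 in WT and -3.21 to -2.86 in KO, without overlap. Taken singly, only Spp1 was without overlap. Sox9 differed by 0.36, Krt19 by 0.22, Krt7 by 0.06 and Epcam by -0.00, all with overlap. Of 4 B cell markers, Cd79b rose by 0.48. The mean of 12 Kupffer cell markers (the 10 members with Clec1b and Folr2) was 3.59 to 4.57 in WT and 3.95 to 4.70 in KO, with overlap. WT 4, high in the members, was also the highest liver for T and NK markers (0.46 above their mean) and dendritic markers (0.65 above), and the part of those cells was not tested.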

How the data were processed

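Per the labels' protocols, total liver RNA was labelled with Cy5 as cRNA and hybridised with the Cy3-labelled reference on every array, without dye swaps. Scanning used Agilent Feature Extraction (10.7 per the submitters' processing notes, 10.7.3.1 per the file headers). Mean spot signals and background medians were deposited as raw linear intensity values, per the file headers. LogRatio, as deposited, is log10 of Cy5 over Cy3 after the scanner software's own background subtraction and dye normalisation, per the file headers. The authors' deposited value table holds log2 ratios with the same direction, shown by correlations of 0.9994 to 0.9996 with the ratios used here. Its column medians were 0.00776 to 0.0230, and the sources used here do not give its normalisation.

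Spots flagged as outliers, or with an outlying background, were dropped before normexp (offset 50). Control spots not counted, these were 169 to 291 per array, on arrays of 45018 spots in all. The order was chosen after flagged spots were seen to distort the fit of the WT 5 array. Ratios were normalised by loess within arrays, with the 1639 control spots at weight 0, and spots of a probe were averaged. The filter on dim probes asked for a Cy5 signal well above background on 4 or more of the 10 arrays, which 26956 probes met. The brightest remaining probe in mean Cy5 stood for its gene (18934 genes, 64 with a missing value). Names came from the RefSeq table of GRCm38.p6 by accession (22951 probes), symbol (6659) or synonym (3109), and 8455 probes kept the file's name. The number of arrays, not depth, limits precision.

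limma 3.58.1 in R 4.3.3 fitted genotype and sex, with a second model for their interaction, and Benjamini-Hochberg adjustment over all genes (threshold 0.05). Fits were tested on simulated data. Named were all 10 members, every gene of the wider lists past the threshold for genotype or sex, fixed neighbours of the members (Csf1, Il34, C1qc, Cd68, Lyz2, Clec1b, Folr2, Spic, Nr1h3 and Ccr2), Gcgr, and the 3 genes nearest to Clec4f and to Cd5l. Stab1, Lgmn, Hmox1, Ccl2 and the marker genes of other cell types were named after their values were seen. A few genes of the wider lists are not reported here and were left out of those lists' counts. The members and lists were chosen with earlier results of these data known. Alternatives changed the background correction, order of flag removal, normalisation, channel, filter, probe rule, slide, sex term and replicate block, or left out each liver.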

Additional observations from a re-analysis of the deposited data

Results flagged for a closer look

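In 53 sets of 5 livers of one genotype, the highest or lowest value was checked for its distance from the rest by Dixon's test, which chance would pick out in about 1 of 20 sets. Cd14 in WT 4 stood at -2.46, where the other 4 WT livers lay at -3.04 to -2.87. No value of the 10 members stood out by this test, Marco in KO 5 included. The sets did not cover every listed gene. S100a8, Hmox1 and Ccl2, in which KO 5 stood apart, were not among them.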

How the results depend on the processing

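Of 22 alternatives, all but the slide block and the fit without WT 1 left 0 members passing for genotype. With slide as a fixed block 1 member passed (Marco), and leaving out single livers gave 0 to 1. The wider macrophage genes passing numbered 3 with outlier spots removed after normexp, 4 with median centring, 3 without the sex term and 5 to 13 without single livers, against 9 (6 higher). Over all genes the same settings called 337, 278, 619 and 591 to 1173, against 1128. The low end of both ranges came without WT 3, and KO 1 (596) and KO 4 (666) also lowered the all-gene count by over 1.5 times. For sex, 1 member passed in the authors' value table, 1 in the Cy5 channel alone, and 0 to 4 without single livers. For the interaction it was 0 to 1. The replicate block gave 0 members, 4 wider genes and 303 of all genes. It ended 12 of the 13 wider calls for sex, all but that of Ly6c1 (limma adjusted p 0.0583 to 0.650). Same-numbered livers differed in sex only at number 2, so under that block the sex estimate turned on this 1 pair. That fit could therefore hardly test the sex calls, and the same holds for its Timd4 sex value below. WT and KO labels share replicate numbers, but the labels do not say that these mark pairs, and the main model did not use them. Deviations of same-numbered livers correlated at 0.53, -0.43, 0.43, 0.51 and 0.22. The negative value came from the livers numbered 2, which differed in sex. Sex was not taken out of these deviations, so they cannot tell whether the numbers paired the livers. Members reversed their genotype sign only where no test was passed. In the scanner's log ratio this held for Cd5l (-0.0624), Cd163 (-0.25), Timd4 (-0.0463), C1qa (-0.0115) and C1qb (-0.0359). In the authors' table it held for C1qa (-0.00150) and C1qb (-0.00242), and with the replicate block for C1qb (-0.0354). Vsig4 turned positive with flags removed late (0.29), median centring (0.11), Cy5 alone (0.0190), the slide as a fixed (0.13) or random block (0.0433) and no sex term (0.0757). Without single livers Vsig4 ran from -0.13 to 0.0644, Marco from -0.20 to 0.85, Cd163 from -0.00624 to 0.47, Timd4 from -0.0539 to 0.40, C1qa from -0.20 to 0.19 and C1qb from -0.20 to 0.14, with the low end without KO 5 in each. For sex, Clec4f reversed in the scanner's log ratio (-0.10) and with the slide as a fixed block (-0.0747). Cd5l did so in the scanner's log ratio (-0.13), the authors' table (-0.00472) and the slide as a fixed (-0.15) or random block (-0.0360), and Timd4 with the slide as a fixed (-0.43) or random block (-0.0488) and the replicate block (-0.54). Without single livers the sex differences ran from -0.00602 to 0.0828 for Clec4f, -0.0536 to 0.10 for Cd5l and -0.0310 to 0.42 for Timd4. Of the 9 wider calls for genotype, Cd14 passed in 22 alternatives, Slc40a1 and Il1b in 21, Mrc1 in 19, Cd207 and Trem2 in 18, Hpgd in 14, Ly6c1 in 12 and C1ra in 11, and all kept their direction. The cause of these changes was not tested. With 5 livers a group, the interval of Marco allowed a KO level from 0.689 to 2.80 times that of WT.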
